A study of Mus musculus with 6 samples.

Results

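The small leucine-rich proteoglycans are secreted proteins of the connective tissue, built around a curved stack of leucine-rich repeats that lies along collagen fibrils. They set the diameter and spacing of the fibrils and hold growth factors such as TGF-β in the matrix, and in skin they are made mainly by dermal fibroblasts. Class I holds decorin, biglycan and asporin. Class II holds lumican, fibromodulin, PRELP and osteomodulin, class III holds osteoglycin and class V holds podocan. Decorin and biglycan carry chondroitin or dermatan sulfate chains, lumican, fibromodulin and osteomodulin can carry keratan sulfate, and asporin and PRELP are usually made without a chain.

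The 9 genes described here, Dcn, Lum, Bgn, Fmod, Ogn, Omd, Prelp, Aspn and Podn, were taken by symbol from the 21959 genes of the deposited table, and each symbol had a single row. RNA-seq libraries were made from the dorsal skin, at full thickness, of wildtype male C57BL/6 mice. The mice were 7 weeks old and were shaved in telogen, the resting phase of the hair cycle. The vehicle group (3 mice) received a mixture of 30% dipropylene glycol and 70% water on the shaved skin each day for 7 days. The rebamipide group (3 mice) received 3% rebamipide, a drug first used for gastric ulcers, on the same schedule. Skin holds many cell types, so fewer cells of a type and less RNA per cell cannot be told apart in these data.

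The libraries held 38676018 to 39915276 counted reads in the vehicle group and 32709801 to 34706852 in the rebamipide group. Transcripts of the mitochondrial genome made up 2.59% to 5.36% of all counts with vehicle and 13.28% to 21.96% with rebamipide, so levels are given as read counts scaled to a common library size (CPM) after TMM normalization. The third rebamipide library stood apart from a skin sample by its markers: Krt14 and Krt15, keratins of the basal epidermis, had 0 counts there, and so had all 8 growing hair follicle markers. Of these 8 markers, 5 also had 0 counts in the second rebamipide library. A count of 0 allows up to 3 counts, or 0.1145 CPM in the third and 0.1169 CPM in the second rebamipide library, and such limits cover counting error only.

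Prelp rose and Omd fell in rebamipide-treated skin, and the other 7 genes did not pass an adjusted p-value of 0.05 in edgeR's quasi-likelihood test. Among all 14875 genes tested, 14.1% were called higher and 6.51% lower by the same rule, so 1 higher and 1 lower of 9 is close to the background. Every rebamipide library lay below every vehicle library for Lum, Ogn and Omd and above for Prelp. Over all genes tested, 24.0% lay below and 24.5% above in this way. The median log2 fold change of the 9 genes was -1.35, beside -0.17 for all genes tested. When libraries were scaled by total counts alone, both medians moved down, to -1.90 and -0.78, and the distance between them was -1.18 with TMM and -1.12 with total counts. DESeq2, which the study used, called 1 of the 9 genes higher and 5 lower (Dcn, Lum, Ogn, Omd and Aspn) at an adjusted p-value under 0.05, beside 16.2% higher and 15.5% lower among the 16433 genes it gave an adjusted p-value. The study's thresholds (p under 0.05, taken here as unadjusted, and a log2 fold change beyond 1 in either direction) were also applied to the edgeR fit. With them these 5 genes were again lower and Prelp was higher, where 14.5% of all genes were lower and 14.3% higher. At an unadjusted p-value under 0.05 alone the same 5 genes were lower and Prelp higher, against 18.8% and 20.9% of all genes.

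**Figure D1:**
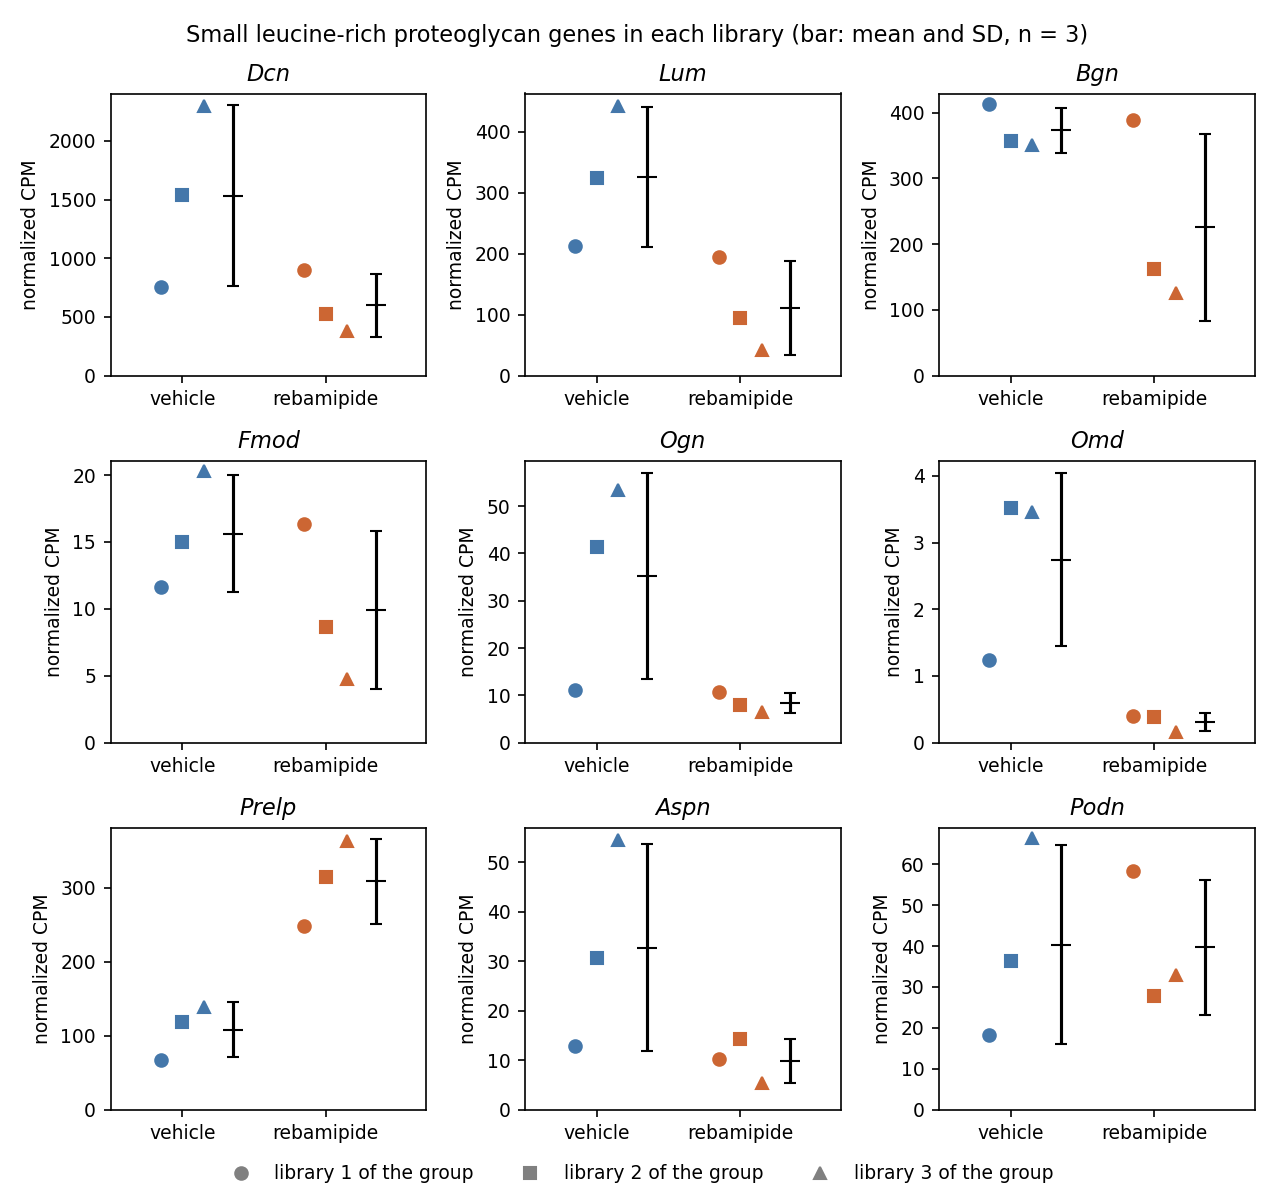
Normalized CPM of the 9 proteoglycan genes in each of the 6 libraries (vertical axes from 0, 1 panel per gene), with the mean and SD of each group (n = 3) beside the points. Prelp is the gene whose 3 rebamipide libraries, 249 to 364 CPM, all lie above the vehicle libraries, and Lum, Ogn and Omd are those whose rebamipide libraries all lie below.

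The plot of CPM by library shows 2 kinds of spread. Within the vehicle group, Dcn, Ogn, Aspn and Podn differed more than 3-fold between the lowest and the highest library, and the first vehicle library was the lowest for each. Within the rebamipide group, the first library was the highest for Dcn, Lum, Bgn, Fmod, Ogn, Omd and Podn, and the lowest for Prelp.

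Prelp encodes a protein with a proline- and arginine-rich end that binds heparan sulfate and is thought to tie basement membranes to the underlying connective tissue. In the table it lies at chr1:133838042-133849152 on the minus strand (GRCm39 by the labels). It had 67.7, 119 and 139 CPM in the vehicle libraries and 249, 315 and 364 CPM in the rebamipide libraries, without overlap. The means were 108 ± 36.7 and 309 ± 57.6 CPM (SD, n = 3), and the fitted level was 2.85-fold higher with rebamipide (log2 fold change 1.51, SE 0.33, edgeR adjusted p = 0.0275). DESeq2 gave an adjusted p-value of 0.00156. The call did not hold in edgeR with total counts alone (0.89, adjusted p = 0.0565) or without the second vehicle (1.54, adjusted p = 0.113), the second rebamipide (1.51, adjusted p = 0.106) or the third rebamipide library (1.39, adjusted p = 0.0708). Relative to the median of all genes, its log2 change was 1.69 with TMM and 1.66 with total counts.

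Omd encodes osteomodulin, also called osteoadherin, a keratan sulfate proteoglycan best known from mineralized tissue. It lies at chr13:49735938-49746298 on the plus strand and was the scarcest of the 9 genes in each library. Its counts were 62, 173 and 162 with vehicle and 12, 10 and 4 with rebamipide. These correspond to 1.24, 3.51 and 3.46 CPM and to 0.395, 0.390 and 0.153 CPM. All rebamipide libraries were lower, at 8.66-fold below vehicle in the fit (log2 fold change -3.11, SE 0.64, edgeR adjusted p = 0.0239). With DESeq2 the adjusted p-value was 5.1e-05. The edgeR call did not hold without the second vehicle library (-2.93, adjusted p = 0.106), the third vehicle library (-2.90, adjusted p = 0.0546), the second rebamipide library (-3.29, adjusted p = 0.0967) or the third rebamipide library (-2.79, adjusted p = 0.0600).

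The stretches just upstream of the RefSeq start sites (GRCm38.p6, a build other than that of the table) are shown for both called genes and for Aspn and Ogn, the neighbours of Omd. They run 5′ to 3′ over the 80 bases that end at the start site, and capitals mark matches to the letters searched.
Prelp (chr1:133921402-133921481, minus strand): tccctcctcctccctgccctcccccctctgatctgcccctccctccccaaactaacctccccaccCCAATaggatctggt
Omd (chr13:49582382-49582461, plus strand): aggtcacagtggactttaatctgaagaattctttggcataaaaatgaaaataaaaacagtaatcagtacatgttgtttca
Aspn (chr13:49544363-49544442, plus strand): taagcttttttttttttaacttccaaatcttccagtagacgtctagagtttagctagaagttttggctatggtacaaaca
Ogn (chr13:49607935-49608014, plus strand): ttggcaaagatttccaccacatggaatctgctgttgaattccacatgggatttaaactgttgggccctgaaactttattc

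The stretch of Prelp was rich in G and C (63.8%) and that of Omd poor (30%), with 32.5% in Aspn and 41.2% in Ogn. Of the 9 genes, 7 matched the RefSeq promoter table, with 8 windows of 250 bases before to 50 after a start, and Dcn and Lum were not matched. Matches on both strands were searched anywhere in the window for the letters of the TATA box (TATAAA), the CCAAT box (CCAAT), the GC box (GGGCGG), an AP-1 site (TGANTCA), a TEAD motif (GGAATG), a SMAD motif (CAGACA) and the PPAR DR1 element. No motif of this list contains another. The letters CCAAT were found in the windows of Prelp, Fmod and Aspn, starting at -15, 34 and -229 from the start site, and in 37.4% of all 32851 promoter windows. The letters TATAAA were found for Aspn (at -207 and -178) and Ogn (at -229 and -227), far upstream of the usual place of a TATA box, and in 13.6% of all windows. Those at -178 and -229 were on the opposite strand. The 50 bases after the start were found in GRCm38 transcripts of Prelp, Omd and Aspn but in none of Ogn, so the start site of Ogn is less sure. Matches were also found to the GC box for Podn and Bgn (35.7%), the TEAD motif for Ogn (14.7%) and the SMAD motif for Prelp and Podn (21%), and a match does not show a working site. The AP-1 site (7.81% of all) and the PPAR DR1 element (0.0396%) were in none of the 8 windows, and the window of Omd held none of the 7 motifs.

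Among class I genes, Dcn encodes decorin, the main collagen-bound proteoglycan of the dermis, and lies at chr10:97315471-97354005. It had 757, 1544 and 2301 CPM in the vehicle libraries and 899, 524 and 379 CPM in the rebamipide libraries. The first rebamipide library lay above the first vehicle library, so the groups overlapped. The fitted log2 fold change was -1.35 (SE 0.52) with an unadjusted p-value of 0.0403 and an adjusted p-value of 0.110 in edgeR, while DESeq2 gave an adjusted p-value of 0.0440. The DESeq2 call did not hold in 4 of 6 fits that left out a library: the second vehicle (adjusted p = 0.0932), the third vehicle (0.216), the second rebamipide (0.193) or the third rebamipide library (0.148).

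Bgn encodes biglycan, the closest relative of decorin, and lies on chromosome X at 72527208 to 72539539. Its vehicle libraries were alike, at 412, 356 and 351 CPM, and its rebamipide libraries had 389, 162 and 126 CPM. The first rebamipide library fell within the vehicle range and the other two lay far below it. Neither edgeR nor DESeq2 called it (log2 fold change -0.73, SE 0.45, edgeR adjusted p = 0.264), but without the first rebamipide library it was lower at -1.37 (edgeR adjusted p = 0.0141). Without the second or the third rebamipide library its log2 fold change was -0.53 (edgeR adjusted p = 0.536) or -0.43 (edgeR adjusted p = 0.534).

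Aspn encodes asporin, which binds collagen and TGF-β through its repeats and carries a run of aspartates near its start. It had 13.0, 30.6 and 54.6 CPM in the vehicle libraries and 10.1, 14.2 and 5.34 CPM in the rebamipide libraries. The second rebamipide library lay just above the first vehicle library. The log2 fold change was -1.72 (SE 0.60), with an adjusted p-value of 0.0874 in edgeR and 0.0243 in DESeq2. The DESeq2 call did not hold without the third vehicle library (-1.13, adjusted p = 0.164) or the third rebamipide library (-1.39, adjusted p = 0.0913).

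Among class II genes, Lum encodes lumican, which keeps collagen fibrils thin and evenly spaced in cornea and skin. It had 212, 323 and 442 CPM in the vehicle libraries and 195, 94.7 and 42.6 CPM in the rebamipide libraries. The groups did not overlap, although the first library of each group lay close to the other. The log2 fold change was -1.56 (SE 0.59), with an adjusted p-value of 0.103 in edgeR and 0.0358 in DESeq2. Without the first rebamipide library edgeR also called it lower (-2.24, adjusted p = 0.0351), and without the third the edgeR change was -1.16 (adjusted p = 0.165). The DESeq2 call did not hold without the second vehicle (adjusted p = 0.0616), the third vehicle (0.169), the second rebamipide (0.174) or the third rebamipide library (0.0813).

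Fmod encodes fibromodulin, a partner of lumican in fibril assembly that is most abundant in tendon. It had 11.6, 15.0 and 20.3 CPM in the vehicle libraries and 16.3, 8.65 and 4.73 CPM in the rebamipide libraries, and the groups overlapped. Its log2 fold change was -0.66 (SE 0.49, edgeR adjusted p = 0.347). It was -1.22 without the first rebamipide library (adjusted p = 0.0782 in edgeR and 0.0150 in DESeq2), -0.40 without the third vehicle library (edgeR adjusted p = 0.656) and -0.31 without the third rebamipide library (edgeR adjusted p = 0.648).

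Ogn encodes osteoglycin, also called mimecan, the class III member found widely in connective tissue. It had 11.0, 41.4 and 53.4 CPM in the vehicle libraries and 10.6, 7.95 and 6.56 CPM in the rebamipide libraries. The highest rebamipide library lay only just below the lowest vehicle library. The log2 fold change of -2.07 (SE 0.59) had an adjusted p-value of 0.0532 in edgeR and 0.00464 in DESeq2, and edgeR called it lower without the first vehicle library (-2.52, adjusted p = 0.0317), with at least 10 counts required in every library (-2.14, adjusted p = 0.0343) and with total counts alone (-2.64, adjusted p = 0.0282). The DESeq2 call did not hold without the second rebamipide library (adjusted p = 0.0514).

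Podn encodes podocan, a class V member first found in kidney glomeruli and known to bind collagen. It had 18.4, 36.3 and 66.5 CPM in the vehicle libraries and 58.4, 27.7 and 32.9 CPM in the rebamipide libraries, so that both groups covered much the same range. Its log2 fold change was -0.02 (SE 0.52, edgeR adjusted p = 0.974), and its sign changed with the tool and the libraries used.

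In two-sided exact permutation tests on the CPM of single genes, Lum, Ogn, Omd and Prelp reached p = 0.1, which is the smallest value that 3 against 3 libraries can give. The exact p-value was 0.2 for Dcn and Aspn, 0.3 for Bgn and Fmod and 1 for Podn.

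Levels were compared between the genes with the deposited FPKM, which account for gene length. In the vehicle libraries, Dcn was the most abundant (166, 326 and 477 FPKM), followed by Lum (110 to 218 FPKM), Bgn (69.6 to 86.4 FPKM) and Prelp (23.9 to 46.5 FPKM), and this order held in 3 of 3 libraries. The ranges of Dcn and Lum overlapped, and those of Lum, Bgn and Prelp were separate. Aspn, Ogn and Podn came next, between 5.49 and 28.0 FPKM, with Aspn above Podn in 3 of 3 libraries and Ogn in no fixed place among them. Fmod (4.49 to 7.41 FPKM) and Omd (0.705 to 1.93 FPKM) were the lowest in each vehicle library.

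In the rebamipide libraries the order changed at the top. Prelp, at 64.0, 65.0 and 76.0 FPKM, was ranked 3, 2 and 1 of the 9 genes, and Dcn, at 143, 67.0 and 49.1 FPKM, was ranked 1, 1 and 2. Lum reached 73.8, 28.9 and 13.1 FPKM and Bgn 59.2, 19.8 and 15.6 FPKM, and the ranges of Dcn, Lum and Bgn overlapped. The range of Prelp lay above that of Bgn and overlapped those of Dcn and Lum. Prelp per Dcn was 0.145, 0.124 and 0.0975 in the vehicle libraries and 0.447, 0.970 and 1.55 in the rebamipide libraries.

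**Figure D2:**
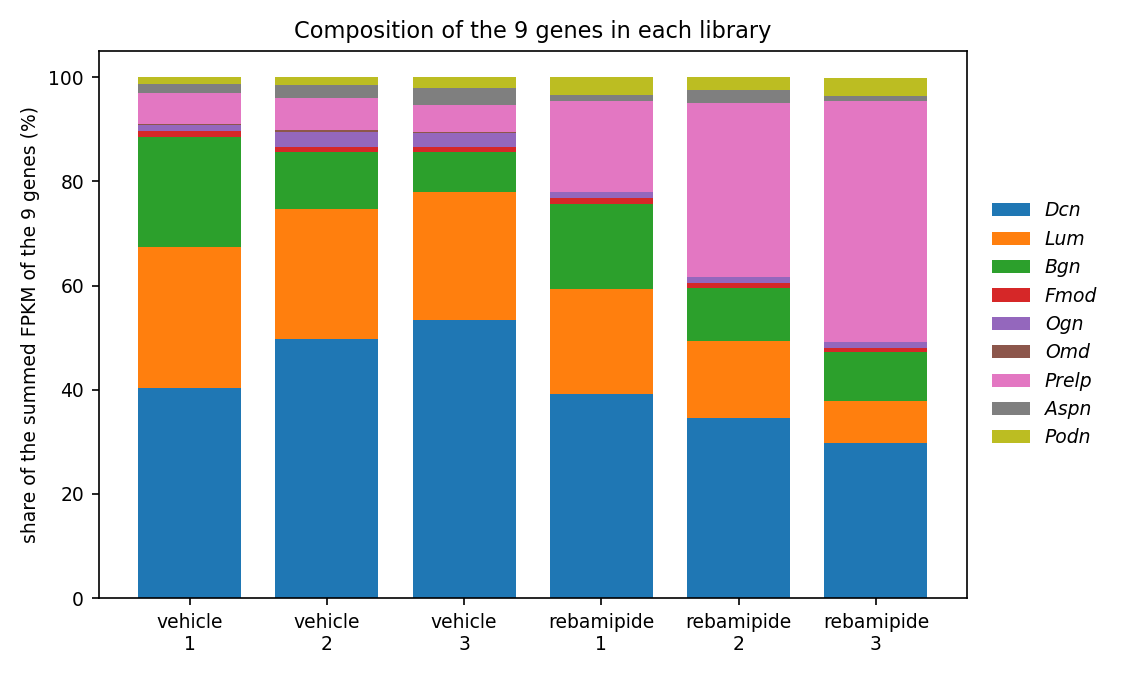
Share of each of the 9 genes in their summed FPKM (vertical axis, percent, from 0), 1 stacked bar per library. Prelp takes 5.21% to 6.17% with vehicle and 17.5% to 46.2% with rebamipide, and Lum takes 24.5% to 27.0% and 7.99% to 20.2%.

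A share of the summed FPKM of the 9 genes within a library does not depend on the scaling between libraries, and these shares are given as a description without a test. The summed FPKM were 410, 656 and 892 in the vehicle libraries and 365, 194 and 164 in the rebamipide libraries. The share of Prelp was 5.74% ± 0.491 with vehicle and 32.4% ± 14.4 with rebamipide (SD, n = 3). That of Dcn was 47.9% ± 6.70 and 34.5% ± 4.66, and the groups did not overlap for either gene. The shares of Lum, Ogn and Omd were also lower in each rebamipide library, that of Podn was higher (1.34% to 2.11% against 2.49% to 3.53%), and those of Bgn, Fmod and Aspn overlapped. Part of this follows from Prelp itself being in the sum. With Prelp left out of the sum, the share of Dcn was 42.9%, 53% and 56.3% with vehicle and 47.5%, 51.8% and 55.5% with rebamipide, so the groups overlapped, as did those of Ogn. The shares of Lum and Omd stayed lower in each rebamipide library and that of Podn higher, and that of Fmod became higher.

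Several of these genes sit side by side in the genome. Ecm2, Aspn, Omd and Ogn follow each other within 119.7 kb of chromosome 13 on the plus strand, and all had negative fitted changes, from -0.67 for Ecm2 to -3.11 for Omd. edgeR called Omd alone among them, and DESeq2 called Aspn, Omd and Ogn. Dcn, Lum, Kera and Epyc lie within 202.8 kb of chromosome 10. Kera, the keratocan gene, had 45, 122 and 109 counts with vehicle and 36, 16 and 0 with rebamipide (log2 fold change -1.64, edgeR adjusted p = 0.324). Epyc had 21 counts or fewer in every library and did not pass the edgeR filter, and DESeq2 did not call it (log2 fold change -3.49, adjusted p = 0.0928).

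Prelp lies between Optc and Fmod within 151.1 kb of chromosome 1. Its log2 change of 1.51 stood beside 0.29 for Optc (edgeR adjusted p = 0.748), which had 20 counts or fewer in every library, and -0.66 for Fmod. Cenpp, a centromere protein gene on the opposite strand, spans Aspn, Omd and Ogn, and Scp2, a lipid transfer gene that rose (log2 fold change 1.80, edgeR adjusted p = 0.0337), overlaps Podn on the same strand. In the GRCm38 annotation the exons of Cenpp shared 7 bases with Aspn and 0 with Omd and Ogn, and those of Scp2 shared 0 bases with Podn. The sources used here do not say whether reads were counted by strand.

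**Figure D3:**
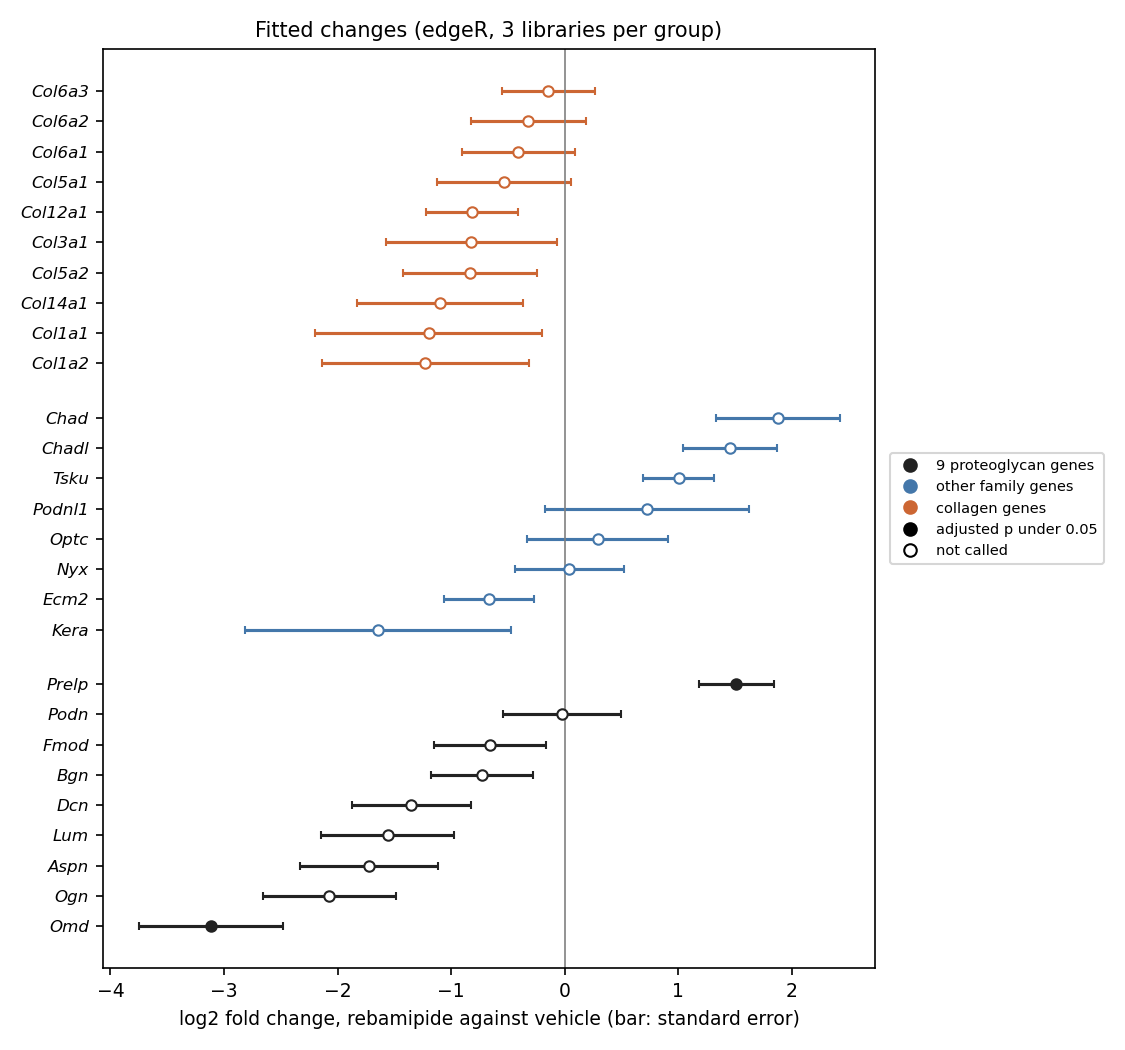
Fitted log2 fold changes (horizontal axis, rebamipide against vehicle, edgeR) with standard errors for the 9 proteoglycan genes, 8 other family genes and 10 collagen genes (fibrillar, fibril-associated and type VI), 3 libraries per group. Filled points have an adjusted p-value under 0.05, and Prelp and Omd are the filled ones.

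Of 9 other genes of the family, 8 were tested, none was called by edgeR, and their median log2 fold change was 0.51. At an unadjusted p-value under 0.05, 3 of them were higher and 0 lower, and DESeq2 called 3 higher and 0 lower at its adjusted p-value. Over all genes, 20.9% were higher and 18.8% lower unadjusted in edgeR, and 16.2% and 15.5% in DESeq2. Chad, which encodes the cartilage protein chondroadherin, had 0.180, 0.345 and 0.299 CPM with vehicle and 0.659, 1.56 and 0.840 CPM with rebamipide (log2 fold change 1.88, edgeR adjusted p = 0.0564). Chadl, its relative, had a log2 fold change of 1.46 (edgeR adjusted p = 0.0544). Tsku, which encodes the secreted BMP and Wnt modulator tsukushi, had 13.5, 9.89 and 9.60 CPM with vehicle and 16.0, 20.2 and 30.0 CPM with rebamipide (1.00, edgeR adjusted p = 0.0675). For these 3 genes, as for Prelp and 24.5% of all genes tested, each rebamipide library lay above each vehicle library. With total counts alone, the median of the 8 genes was -0.12.

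The plot of fitted changes sets the 9 genes beside 10 genes of fibrillar collagens, fibril-associated collagens and collagen VI, some of which these proteoglycans bind. None of the 10 collagen genes was called by edgeR or DESeq2, 0 had an unadjusted p-value under 0.05, and the groups overlapped for all 10. Their median log2 fold change was -0.82. Col1a1, the main collagen of the dermis, had 3467, 3218 and 3908 CPM with vehicle and 3849, 527 and 237 CPM with rebamipide. As for Bgn, the first rebamipide library was within or near the vehicle range and the other two were far below it. Dcn per Col1a1, from FPKM, was 0.245, 0.539 and 0.662 with vehicle and 0.263, 1.12 and 1.80 with rebamipide.

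Of 12 genes that process and cross-link collagen, 1 was higher and 0 were lower in edgeR (median log2 fold change -1.04). At an unadjusted p-value under 0.05, 4 were lower, and DESeq2 called 1 higher and 3 lower. Over all genes, 14.1% were higher and 6.51% lower in edgeR, 18.8% lower unadjusted, and 16.2% higher and 15.5% lower in DESeq2. With total counts alone, 0 of the 12 genes were higher and 3 lower, so the call of Plod1 did not hold. Plod1, a lysyl hydroxylase, rose from 29.2, 51.3 and 60.8 CPM to 105, 104 and 111 CPM (log2 fold change 1.18, edgeR adjusted p = 0.0376). Lox, the lysyl oxidase that starts cross-linking, had 52.8, 122 and 143 CPM with vehicle and 50.2, 40.2 and 29.5 CPM with rebamipide (-1.41, edgeR adjusted p = 0.0579).

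**Figure D4:**
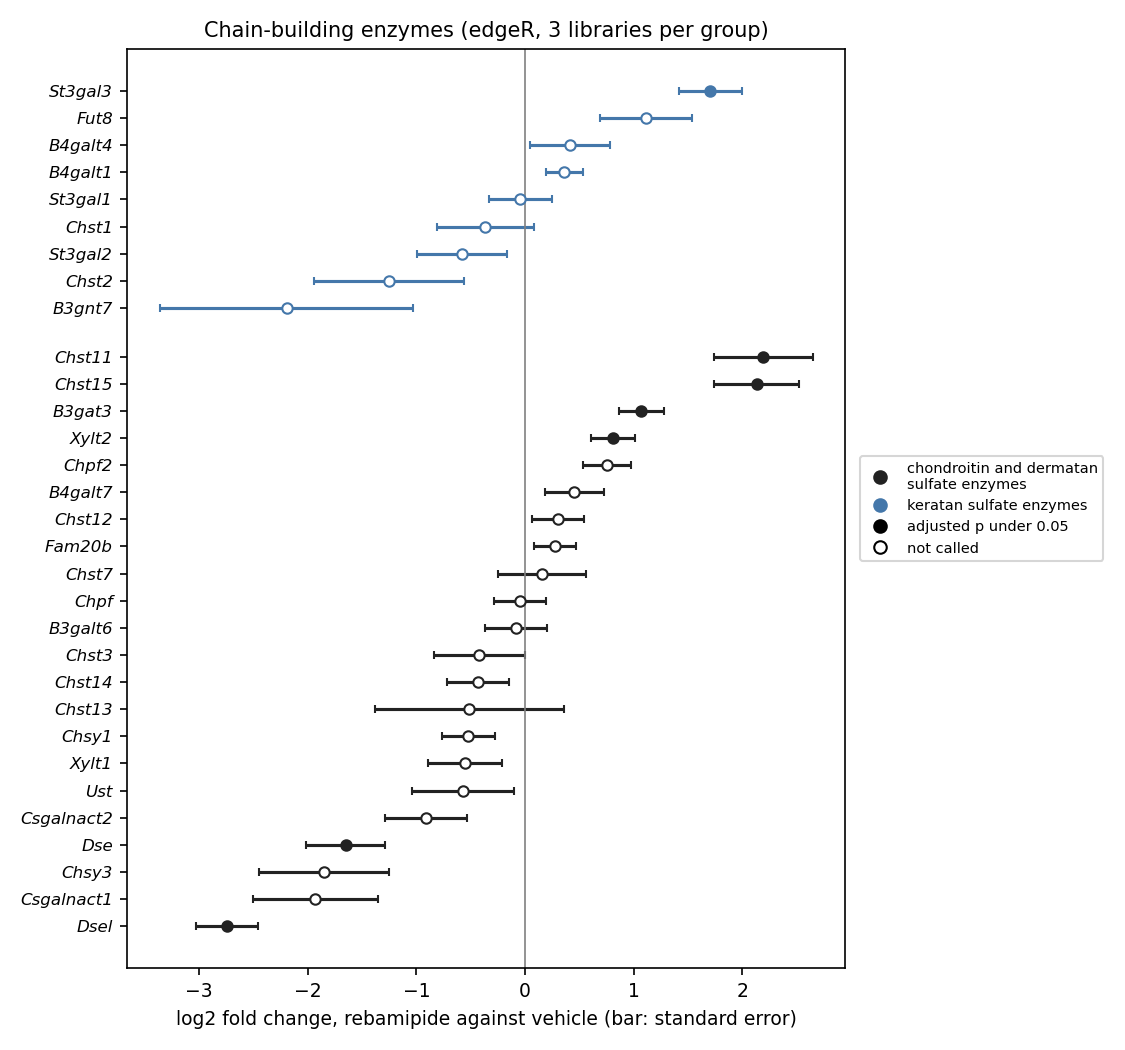
Fitted log2 fold changes (horizontal axis, rebamipide against vehicle, edgeR) with standard errors for 22 enzymes of chondroitin and dermatan sulfate synthesis and 9 of keratan sulfate synthesis, 3 libraries per group. Filled points, with an adjusted p-value under 0.05, lie on both sides of 0, from -2.74 for Dsel to 2.19 for Chst11.

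The sugar chains of decorin and biglycan are built by a series of enzymes, and the plot of these enzymes shows fitted changes of both signs. Of 22 genes, 4 were higher and 2 lower in edgeR and 5 were higher and 4 lower in DESeq2, counts near the shares over all genes (14.1% and 6.51% in edgeR, 16.2% and 15.5% in DESeq2). Their median log2 fold change was -0.25. The 2 that fell in edgeR, Dsel and Dse, are the epimerases that turn chondroitin sulfate into dermatan sulfate. Dsel had 10.6, 13.0 and 13.9 CPM with vehicle and 1.75, 2.18 and 1.68 CPM with rebamipide (log2 fold change -2.74, SE 0.28, edgeR adjusted p = 0.00939). Dse had 43.0, 54.2 and 58.0 CPM with vehicle and 24.3, 15.4 and 9.69 CPM with rebamipide (-1.65, SE 0.36, edgeR adjusted p = 0.0288).

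The 4 genes that rose act on the linker or on sulfation. Chst11 encodes a chondroitin 4-O-sulfotransferase. It had 24.4, 12.0 and 10.9 CPM with vehicle and 43.8, 70.9 and 101 CPM with rebamipide (log2 fold change 2.19, edgeR adjusted p = 0.0245). Chst15, which adds a further sulfate to such chains, had 13.4, 18.9 and 18.3 CPM with vehicle and 45.0, 61.6 and 115 CPM with rebamipide (2.13, edgeR adjusted p = 0.0181). B3gat3 (1.07, edgeR adjusted p = 0.0213) and Xylt2 (0.81, edgeR adjusted p = 0.0385) build the linker between protein and chain, which heparan sulfate shares. With total counts alone, 2 of the 22 genes were higher and 6 lower.

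Of 11 genes of keratan sulfate synthesis, 9 were tested, and edgeR called 1 higher and 0 lower (14.1% and 6.51% over all genes). The counts were 2 and 0 at an unadjusted p-value under 0.05 and 1 and 0 in DESeq2. The median log2 fold change was -0.04. The gene that rose was St3gal3, a sialyltransferase with many substrates, at 16.6, 27.3 and 33.1 CPM with vehicle and 73.2, 82.8 and 95.0 CPM with rebamipide (1.71, edgeR adjusted p = 0.0155).

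Small leucine-rich proteoglycans bind growth factors and cell surface receptors. Of 18 such genes, 2 were higher and 5 lower in edgeR (2 and 6 in DESeq2). Over all genes, 14.1% were higher and 6.51% lower in edgeR, and 16.2% and 15.5% in DESeq2. The median log2 fold change of the 18 genes was -0.73. Kdr, the main VEGF receptor of blood vessels, had 33.9, 45.4 and 63.9 CPM with vehicle and 249, 365 and 434 CPM with rebamipide (2.87, edgeR adjusted p = 0.00979). Erbb4, a relative of the EGF receptor, rose from 0.0801 to 0.171 CPM with vehicle to 1.12 to 3.66 CPM with rebamipide (4.11, edgeR adjusted p = 0.0129). Egfr, the EGF receptor, which decorin can bind, had 173, 142 and 118 CPM with vehicle and 58.6, 27.1 and 13.9 CPM with rebamipide (-2.12, edgeR adjusted p = 0.0395).

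The other genes that fell were Igf1r, the IGF receptor (-1.27, edgeR adjusted p = 0.0133), Tgfbr1, the type I TGF-β receptor (-1.08, edgeR adjusted p = 0.0352), and the ligands Bmp2 (-1.80, edgeR adjusted p = 0.0243) and Bmp4 (-2.33, edgeR adjusted p = 0.0448). The endocytic receptor Lrp1, the integrin subunit Itgb1 and the type II receptor Tgfbr2 had log2 fold changes of 0.00, 0.00 and 0.03. Of 13 proteases that can cut these proteoglycans and their inhibitors, 12 were tested and 1, the aggrecanase Adamts5, was lower (-1.52, edgeR adjusted p = 0.0488), while 3 were lower with total counts alone. In the main fit, edgeR called 6.51% of all genes lower. Mmp7 had 0 counts in all 6 libraries.

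**Figure D5:**
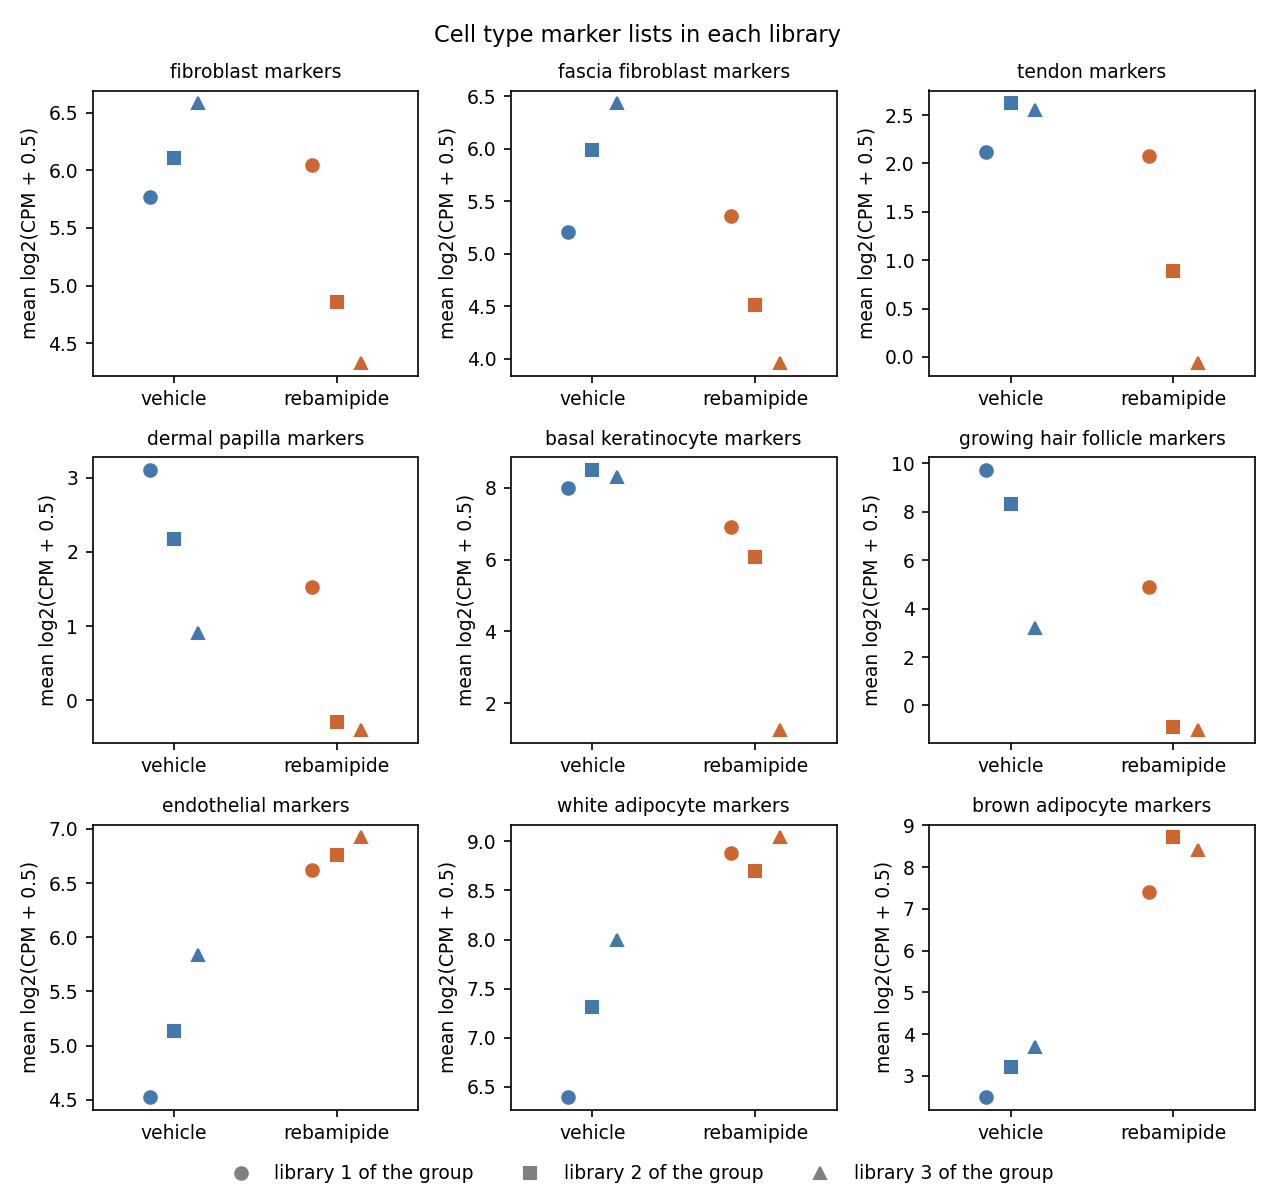
Mean log2(CPM + 0.5) of 9 cell type marker lists in each of the 6 libraries (1 panel per list, vertical axes differ and do not start at 0). Endothelial, white adipocyte and brown adipocyte markers lie higher in each rebamipide library, and basal keratinocyte and tendon markers lie lower. For tendon markers the first rebamipide library (2.08) lies just below the lowest vehicle library (2.12).

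The makeup of the libraries differed along with the treatment, as the plot of marker lists shows. Beside the counts given for these lists, edgeR called 14.1% of all genes higher and 6.51% lower, and DESeq2 16.2% and 15.5%. At an unadjusted p-value under 0.05 in edgeR, the shares were 20.9% and 18.8%. Fibroblast markers summed to 1548 to 3201 CPM with vehicle and 1033 to 2474 CPM with rebamipide, and of these 10 genes 0 were higher and 1 lower in edgeR. In the tendon list, the sum was 73.4 to 79.1 CPM with vehicle and 6.49 to 81.3 CPM with rebamipide. Its mean log2(CPM + 0.5) was 2.12, 2.62 and 2.55 with vehicle and 2.08, 0.89 and -0.06 with rebamipide. The median log2 fold change of this list was -1.64. Of its 7 genes, 0 were called by edgeR (1 lower at an unadjusted p-value under 0.05 and 1 lower in DESeq2). Fascia fibroblast markers summed to 274 to 741 CPM with vehicle and 304 to 486 CPM with rebamipide. In edgeR 0 of 7 were higher and 2 lower (median log2 fold change -1.31). At an unadjusted p-value under 0.05, and in DESeq2, 3 were lower. Ly6c1 of this list went the other way, without overlap (log2 fold change 0.79, edgeR adjusted p = 0.191). It made up 256, 198 and 245 CPM of the rebamipide sums of 486, 304 and 320 CPM.

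Endothelial markers, like Prelp, had higher sums in each rebamipide library (249 to 607 CPM with vehicle and 1135 to 1559 CPM with rebamipide), and 4 of 8 were called higher by edgeR, while Vwf had a log2 fold change of -0.19 (edgeR adjusted p = 0.806). White adipocyte markers summed to 942 to 3502 CPM with vehicle and 5566 to 7380 CPM with rebamipide, with 5 of 8 higher. Brown adipocyte markers summed to 214 to 384 CPM with vehicle and 5040 to 12960 CPM with rebamipide, with 6 of 8 higher in edgeR, and Ucp1, their defining gene, had 0 counts in each vehicle library. Elovl3 of this list went the other way, without overlap (log2 fold change -1.45, adjusted p = 0.0575 in edgeR and 0.0119 in DESeq2). Basal keratinocyte markers summed to 2513 to 4053 CPM with vehicle and 144 to 1183 CPM with rebamipide, with 0 of 7 called by edgeR (2 lower at an unadjusted p-value under 0.05 and 2 lower in DESeq2). Cartilage and bone markers summed to 27.6 to 59.4 CPM with vehicle and 2.56 to 19.3 CPM with rebamipide, lower in each rebamipide library, as Omd was. Of these 9 genes 3 were tested and 0 called by edgeR (1 lower at an unadjusted p-value under 0.05 and 1 lower in DESeq2). Sox9, which hair follicles also express, made up most of the sum (26.1 to 49.0 CPM and 1.57 to 12.3 CPM), and the bone genes Bglap, Ibsp and Dmp1 had 0.748 CPM or less in every library. Fast skeletal muscle markers summed to 5317 to 26416 CPM with vehicle and 272 to 33731 CPM with rebamipide, with 0 of 8 called by edgeR or DESeq2 and 0 at an unadjusted p-value under 0.05. Slow skeletal muscle markers summed to 1.88 to 13.2 CPM with vehicle and 5.19 to 256 CPM with rebamipide, with 3 of 5 higher. The part of these differences in the changes of Prelp, Omd and the other 7 genes was not tested.

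The genes most like the mean of the 9 standardized profiles were found by Pearson's correlation of log2 CPM over the 6 libraries. They were sought among 13378 genes with a mean of at least 50 counts. This mean includes Prelp (log2 fold change 1.51) and Podn (-0.02) along with the genes of negative change, so it is not a pattern that all 9 genes share. The highest were Mefv (r = 0.997), Cbr3 and 6430548M08Rik (both 0.995), then Pdgfra and Tmem86a (both 0.994). Prox1, Fam114a1, Serpina3i, Ackr2 and Nova1 followed, at 0.991 to 0.993. Pdgfra encodes the PDGF receptor that marks fibroblasts and adipocyte precursors, and its own log2 fold change was -0.78 (edgeR adjusted p = 0.192). With 6 libraries in 2 groups such values are easily high, and 362 of the 13378 genes reached r = 0.95 or more. For Prelp alone the nearest were Mettl23, Rusc2 and Tcn2 (each 0.999), for Omd Pla2g3 and Trim13 (both 0.997) and Clcn5 (0.992), and for Dcn Poglut3 and Pip4k2a (both 0.997) and Opcml (0.996).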

How the data were processed

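RNA-seq of dorsal skin was analysed for 3 vehicle and 3 rebamipide libraries. The read counts per gene were deposited by the authors as whole numbers without normalization. The deposited FPKM equal the counts divided by gene length and library total (largest relative difference 5.1e-15). The submitters' processing notes name fastp 0.22.0, HISAT2 2.1.0, HTSeq 0.9.1 and GRCm39, without their settings. The study gives 3 mice per group, and the titles number 3 samples per group. That each library came from a single mouse is not stated outright in the sources used here.

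The test was edgeR's (version 4.0.16, R 4.3.3) on the counts (TMM, filterByExpr, quasi-likelihood test, Benjamini-Hochberg adjustment over 14875 genes). Alternatives were DESeq2 1.42.0, limma-voom (limma 3.58.1), other scalings and filters, a block for the replicate number, fits that left out single libraries, the study's thresholds (p under 0.05, absolute log2 fold change over 1) and limma on log2(FPKM + 1). DESeq2 with each library left out was added after the data were seen. On simulated counts with 200 genes changed 4-fold, edgeR recovered 95.0% with 11 false calls among 15049 genes and DESeq2 95.0% with 32 among 17710. The simulation gave every gene the same dispersion and every library the same makeup apart from the changed genes. It checks that the tools run as intended, and its rates do not carry over to these libraries. Replicates differed by far more than sampling noise (chi-square values of 83.1 to 742.3 per degree of freedom).

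The 9 genes and the lists around them were chosen with earlier results of these data known. All 9 genes are named, with up to 3 genes of smallest p-value and 3 of highest CPM from each list, the genes between or overlapping the 9 genes, and those most alike. Xylt2, Dse, Tgfbr1, Egfr, Bmp2, Bmp4, Vwf, Elovl3, Bglap, Ibsp, Dmp1 and the markers at 0 counts were added with their values known. Promoter sequences are from RefSeq, GRCm38.p6. Protein sequences were not used here. The table's annotation columns were used for symbols and positions only.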

Additional observations from a re-analysis of the deposited data

How the results depend on the processing

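The median log2 fold change of the 9 genes stayed negative under every alternative, from -0.92 to -1.90. Of the 9 genes, the number lower at an adjusted p-value under 0.05 was 1, but 5 with DESeq2, 5 with limma on log2(FPKM + 1), 4 with total counts alone and 0 with the replicate block, where Omd had -3.05 (adjusted p = 0.0720). It ranged from 0 to 3 with single libraries left out in edgeR and from 2 to 7 in DESeq2. The number higher was 1, but 0 with total counts alone, and 0 to 1 with libraries left out. With the study's thresholds 5 genes were lower, but 6 with FPKM, 4 with at least 10 counts in every library, 3 with limma-voom, 1 with the replicate block and, with libraries left out, 2 to 6 in edgeR and 2 to 7 in DESeq2, and 1 gene was higher, but 0 with total counts alone and 0 with FPKM. The log2 fold change of Podn changed sign with limma-voom (0.10), with the replicate block (0.06) and without the third vehicle library (0.56; 0.55 in DESeq2), the second rebamipide library (0.18; 0.17) or the third (0.10; 0.12), and ranged from -0.41 to 0.56 with libraries left out. In DESeq2 Omd and Prelp were called whichever library was left out, with adjusted p-values up to 0.00219 and 0.0213. Omd could not be tested with at least 10 counts in every library or with FPKM.

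Over all genes, 2093 were higher and 968 lower. The counts were 2661 and 2552 with DESeq2, 1258 and 3752 with total counts alone, 2155 and 1512 with at least 10 counts in every library, 1322 and 4292 with FPKM and 1432 and 855 with the replicate block. Without the second vehicle library edgeR called 0 genes (smallest adjusted p = 0.0747, 4116 at an unadjusted p under 0.05) and DESeq2 2662 and 2114, and without the second rebamipide library edgeR called 1 (4062 unadjusted) and DESeq2 1952 and 1475. edgeR called 1507 and 379 without the first vehicle library, 2810 and 1971 without the first rebamipide library and 1012 and 382 without the third. The replicate numbers do not pair the samples: same-numbered libraries deviated from their group means with correlations of -0.071, -0.033 and -0.040. Low counts limit the precision for Omd, Kera, Epyc, Optc, Chad, Chadl and Erbb4.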

Other observations

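The 3 vehicle libraries differed from each other in the growing hair follicle markers, which summed to 14636, 6270 and 148 CPM. In the same order, the 9 proteoglycan genes summed to 1504, 2469 and 3431 CPM and Dcn had 757, 1544 and 2301 CPM. In the rebamipide libraries the hair follicle markers summed to 732, 0.390 and 0 CPM, while the 9 genes summed to 1828, 1154 and 962 CPM. With 3 libraries per group no relation was tested.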
